A study of Mus musculus with 3 samples.

Results

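The Zic genes encode zinc finger transcription factors of the embryo, and 4 of them (Zic1, Zic2, Zic4 and Zic5) are described here across 3 stages of a mouse embryonic stem (ES) cell differentiation towards liver. The genes were chosen by name: 6 of the 41174 gene probes of the array carry 1 of these 4 symbols in the scanner files, with 2 probes for Zic1, 1 for Zic2, 2 for Zic4 and 1 for Zic5. They are 4 of 28578 gene names with a value on every array, and all 4 were among the 21653 names compared between days. The cells were of the mouse ES line E14.1. The day 0 group was ES cells grown on gelatin in medium with N2 and B27 supplements with LIF at 1000 U/ml and BMP4 at 10 ng/ml. The day 5 group was definitive endoderm made from them on collagen IV with activin A at 30 ng/ml and neither LIF nor BMP4. The day 7 group was early hepatic cells, given 2 further days of the same medium with BMP4 at 30 ng/ml and basic FGF at 10 ng/ml added to the activin A. All groups share the line and the basal medium, and no transgene or sorted population is named in the labels. Total RNA of each group was hybridised to 1 Cy3-labelled Agilent array, so no difference below has a replicate or a p-value, and each is a difference between 2 arrays.

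Zic proteins bind DNA through a block of zinc fingers that is related to that of the Gli factors, the transcriptional effectors of Hedgehog signalling, and they also act as cofactors of other transcription factors. In the mouse embryo they are best known from the neural plate, the dorsal neural tube, the cerebellum and the somites, and some members are already active in the epiblast. Zic genes lie in head-to-head pairs, of which Zic1 with Zic4 and Zic2 with Zic5 are covered here.

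On the scale used here a normalised log2 signal of 0 is the 75th percentile of all gene spots of an array, and a signal is also given as a percent of that percentile. That percentile was 1564 intensity units on day 0, 2051 on day 5 and 2053 on day 7, and between 70.9% and 71.7% of gene spots were well above background by the mark of the extraction software. Errors are those the extraction software gave for the single spot of each Zic probe, which is a technical error only. Probes printed in 10 spots had a median SD of 0.0758 to 0.0801 (log2) on the 3 arrays. Genes well above background on both arrays had a median difference of -0.13 (log2) for day 5 minus day 0, -0.20 for day 7 minus day 0 and -0.09 for day 7 minus day 5, and each Zic difference can be set against that shift. A difference of at least 2-fold, which is 1 on the log2 scale, with the brighter array well above background is called higher or lower. The labelled stages carried most of their markers, which did not fully separate day 5 from day 7. All 6 ES cell markers were at least 2-fold lower on day 5 than on day 0, and all 7 definitive endoderm markers had gained 2-fold or more. On day 7, 6 of 8 hepatic markers were higher than on day 0, although albumin failed the background mark on days 0 and 7. Of these 8, 5 were already higher and 1 was lower on day 5 than on day 0. All 7 endoderm markers were still higher on day 7 than on day 0. Over all genes compared, 16.4% were higher and 16.1% lower on day 5 than on day 0. For day 7 against day 0 these shares were 16.2% and 19.1%.

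Zic2 was high on the day 5 array and lower on both others, Zic5 was also highest on day 5 but with much smaller differences, and Zic1 and Zic4 stayed at or under 2.54% of the 75th percentile. On day 5, Zic2 was 8.69-fold higher than on day 0, and on day 7 it was 5.59-fold lower than on day 5. Zic5 fell 2.46-fold between the same 2 arrays, day 7 against day 5. Zic1 was at least 2.14-fold lower on day 5 than on day 0, a bound that rests on signals close to background.

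The probes are 60 bases long and are shown because the values of Zic1 and Zic4 differ between probes of the same gene. Each sequence below is the first 30 bases of its probe in the scanner files, 5′ to 3′, with that of Zic5 given whole. Capitals mark bases that both Zic1 probes hold, from a shared run of 40.
Zic1, probe A_52_P428654, chr9:91255445-91255504, mm9, minus strand: aattcctagtttccatatttATCCGCATGT
Zic1, probe A_51_P194230, chr9:91255425-91255484, mm9, minus strand: ATCCGCATGTAAAGGGTCTGGTTTATTCAT
Zic2, probe A_51_P364592, chr14:122878810-122878869, mm9, plus strand: cttccttttccacggtgattttaacggctt
Zic4, probe A_51_P145480, chr9:91273565-91273624, mm9, plus strand: gggaaagtgcgaagcccacgccaccgcttc
Zic4, probe A_52_P502228, chr9:91283991-91284050, mm9, plus strand: gaaggggaaaaaagttgttgtgtatatttg
Zic5, probe A_51_P111950, chr14:122858928-122858987, mm9, minus strand: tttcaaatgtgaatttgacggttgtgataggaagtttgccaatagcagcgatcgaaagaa
Probes of different Zic genes shared runs of at most 8 bases, between Zic2 and Zic5. With array probes of any other name the Zic probes shared at most 15 bases. Probes were compared with probes only and not with whole transcripts. These runs therefore do not show whether a probe also binds the transcript of another gene. The files place each probe in a transcript of its gene, and the exon and untranslated region borders were not used here.

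Zic2 encodes a factor whose loss causes forebrain midline defects (holoprosencephaly) in mouse and human. Its processed signal came to 168 ± 17.0 intensity units on day 0, 1914 ± 191 on day 5 and 343 ± 34.4 on day 7, which is 10.7%, 93.3% and 16.7% of each array's 75th percentile. On the normalised log2 scale this was -3.22 ± 0.146 in the ES cells, -0.10 ± 0.144 in the endoderm cells and -2.58 ± 0.145 in the hepatic cells. The day 5 array thus stood alone at a level near the 75th percentile, and the probe was well above background on all 3 arrays. The difference was 3.12 ± 0.205 (log2) for day 5 minus day 0 and -2.48 ± 0.204 for day 7 minus day 5. Against day 0, Zic2 on day 7 differed by 0.64 ± 0.206 (1.56-fold), under the 2-fold limit. With the shift of the detected genes taken off, these 3 differences were 3.25, -2.39 and 0.84. Under the planned normexp background correction Zic2 did not pass 2-fold for day 5 minus day 0 (0.86), and the day 7 minus day 0 difference was -0.83. That fit gave background means of -1242, -12.7 and -344 intensity units for days 0, 5 and 7. The negative control spots averaged 15.5, 11.7 and 12.8. With the background refitted from those spots, Zic2 differed by 2.82 for day 5 minus day 0 and 0.50 for day 7 minus day 0.

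Zic5 lies next to Zic2 and is known from mouse for a role in neural crest and neural tube closure. Its processed signal came to 74.6 ± 8.15 intensity units on day 0, 148 ± 15.5 on day 5 and 60.1 ± 7.14 on day 7, or 4.77%, 7.20% and 2.93% of the 75th percentile. It was highest on day 5 like Zic2, but its lowest array was day 7 and not day 0, and it was well above background on all 3. Zic5 differed by 0.59 ± 0.219 (log2) for day 5 minus day 0, a 1.51-fold difference that did not reach the limit. Under the planned normexp correction this difference turned to -2.50, past 2-fold, which made day 5 the lowest array for Zic5. With the refitted background it was 0.17. For day 7 minus day 5 the difference was -1.30 ± 0.229, and this was the one call for Zic5. That call rested on the processing, since the difference was -0.79 when the background was refitted from the negative control spots. It was 0.96, the other direction, under the planned normexp correction. Both corrections also add 50 intensity units to each signal, and this addition was not tested apart from the background. For day 7 minus day 0 Zic5 differed by -0.71 ± 0.233 (1.63-fold).

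**Figure D1:**
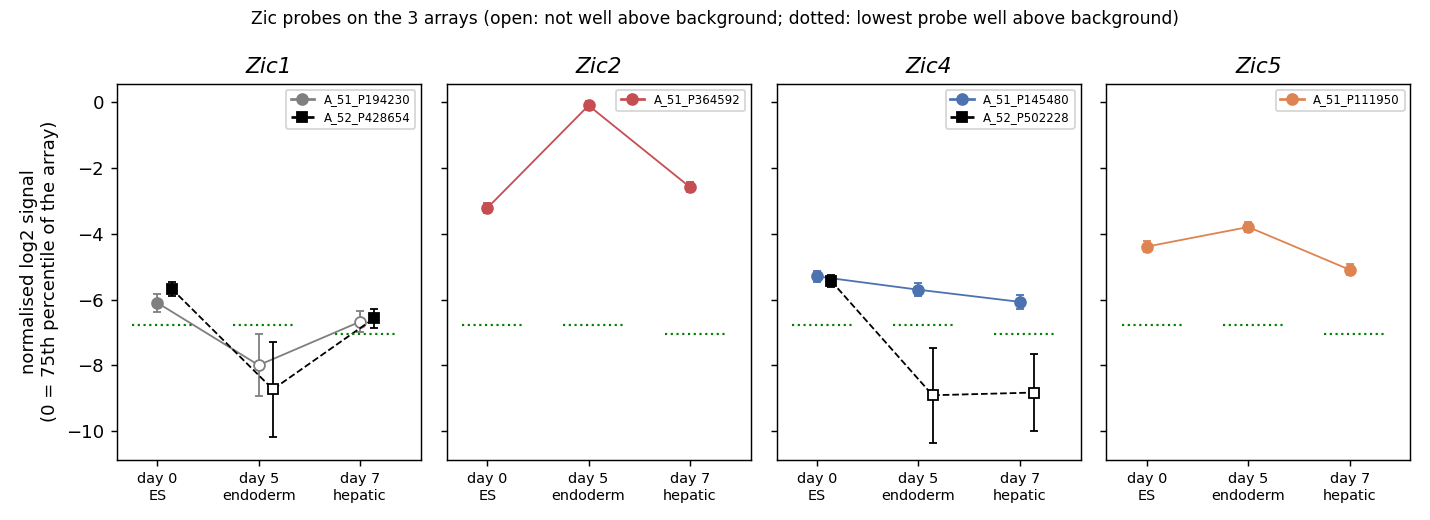
Normalised log2 signal (vertical axis, 0 is the 75th percentile of the array) of the 6 Zic probes on the day 0, day 5 and day 7 arrays, with the extraction software's error of the single spot as bars, open symbols for probes not well above background and dotted lines at the lowest probe well above background on that array. Zic2 reached -0.10 on day 5 against -3.22 on day 0, while the Zic1 probes and 1 of 2 Zic4 probes lay below the dotted line on day 5.

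Zic1, the founding member, is named for the cerebellum, where it is strongly expressed. Its brighter probe gave 30.7 ± 4.60 intensity units on day 0, 4.83 ± 4.82 on day 5 and 21.6 ± 4.41 on day 7, or 1.97%, 0.235% and 1.05% of the 75th percentile. It was well above background on days 0 and 7 and not on day 5, where the error was as large as the signal. The other probe, which shares 40 bases with it, gave 22.8 ± 4.26, 8.03 ± 5.22 and 20.1 ± 4.52 on the same days and was well above background on day 0 only. Both probes were lowest on day 5, but they are 2 readings of nearly the same stretch and not independent.

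With the dim day 5 signal set to the lowest level well above background, the brighter Zic1 probe was at least 2.14-fold lower on day 5 than on day 0. The second probe was at least 1.59-fold lower, which is under the limit. The measured log2 difference of the brighter probe was -3.06 ± 1.46 for day 5 minus day 0, and its size was 2.10 times that error. The call ended at -0.83 with the refitted background and at -0.88 with the median of both probes. The refit also adds 50 intensity units to each signal, more than this probe gave on any day. For day 7 minus day 0 the brighter probe differed by -0.90 ± 0.365 (1.87-fold), and for day 7 against day 5 it was at least 1.15-fold higher. Neither reached 2-fold. Without the bound the day 7 minus day 5 difference was 2.16, past the limit but against a day 5 signal near 0. Under the planned normexp correction the 2 differences were -1.61 and 2.17, and with the refitted background they were -0.55 and 0.28.

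Zic4 shares its locus with Zic1, and loss of both together has been linked to a cerebellar malformation (Dandy-Walker) in human. Its 2 probes gave different calls. The probe A_51_P145480 gave 39.8 ± 4.89 intensity units on day 0, 39.4 ± 5.45 on day 5 and 30.5 ± 4.37 on day 7, and was well above background each time. The probe A_52_P502228 gave 36.0 ± 4.73 on day 0, but 4.26 ± 4.26 on day 5 and 4.52 ± 3.63 on day 7, both without the mark for signal above background. The first probe thus varied little over the days, and the second lost its detectable signal after day 0.

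The probe A_51_P145480, which represents Zic4 in the counts, differed by -0.41 ± 0.267 (log2) for day 5 minus day 0, -0.77 ± 0.272 for day 7 minus day 0 and -0.37 ± 0.287 for day 7 minus day 5, each under the limit. By the probe A_52_P502228, Zic4 was at least 2.50-fold lower on day 5 and at least 3.03-fold lower on day 7 than on day 0. The first probe is placed at base 535 of its transcript and the second at base 3892 of another, so that they need not report the same transcripts. Whether Zic4 passed 2-fold therefore depended on the probe. With the background refitted from the negative control spots A_51_P145480 stayed under 2-fold, at -0.33, -0.51 and -0.19 in the 3 comparisons. The planned normexp correction gave -3.20, -1.57 and 1.63, the last in the other direction. The background means of that planned fit, given above for Zic2, differed widely between arrays.

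Counted with 1 probe a gene, 1 of the 4 Zic genes was called higher on day 5 than on day 0 (Zic2) and 1 was lower (Zic1, by a bound). Over all 21653 genes, 16.4% were higher and 16.1% lower in this comparison. Day 7 against day 0 had 0 of 4 higher and 0 lower, where the array as a whole had 16.2% higher and 19.1% lower. Day 7 against day 5 had 0 higher and 2 of 4 lower (Zic2 and Zic5), against 5.97% and 8.38% of all genes. The median log2 difference of the 4 genes was 0.09, -0.74 and -0.83 in these comparisons, beside -0.11, -0.19 and -0.06 for all genes compared. With 4 genes, these counts describe the members and nothing beyond them. Both comparisons with day 0 use the same array, as do both with day 5.

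The course of Zic2, past the limit upwards between days 0 and 5 and past it downwards between days 5 and 7, was shared by 910 of the 21653 genes (4.20%) and by no other of the 4 Zic genes. Both steps of this course use the same day 5 array. The genes closest to Zic2, by the root mean square distance of the 3 normalised log2 signals after each gene's mean was taken off, were Duxbl1 (0.0206), Cnrip1 (0.0296), Sspo (0.0471) and Lama2 (0.0626), out of 14075 named genes well above background on all arrays. For Zic5 they were Sept6 (0.00672), Dact2 (0.0121), Creb3l4 (0.0232) and Kcnh4 (0.0235). For Zic4 they were Cnot3 (0.00167), Rpl4 (0.00650), Bik (0.00702) and Olfr139 (0.00774). For Zic1, whose day 5 value was not well above background, Rhox5 (0.0146), Bst1 (0.0367), Tshz3 (0.0464) and Pkhd1 (0.0750) were nearest out of 14315. Zic2 and Zic5, which are neighbours on the chromosome, lay 1.03 apart on this measure, and Zic4 and Zic5, on different chromosomes, 0.456. The Zic4 distances, also the 0.456 to Zic5, use the probe A_51_P145480 alone, and the other Zic4 probe was not compared. The software's errors of the Zic signals were 0.144 (log2) or more, above every distance given for the nearest genes. Likeness over 3 arrays is a description with no test.

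**Figure D2:**
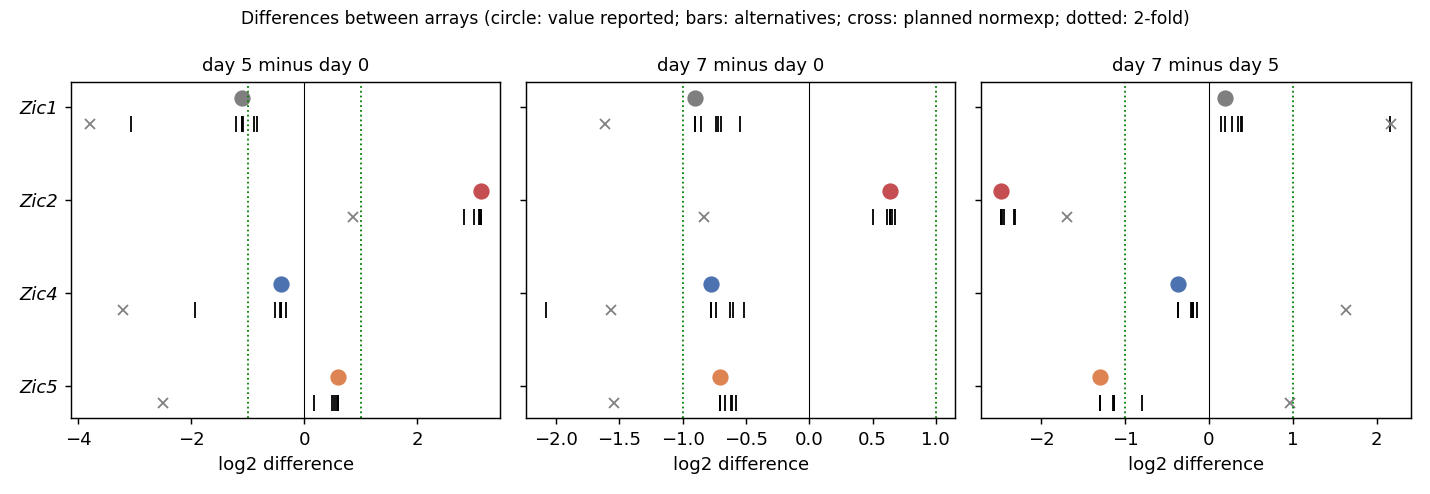
Log2 differences of each Zic gene between days (horizontal axis, later day minus earlier day) as reported (circles), under the alternatives (bars) and with the planned normexp correction (crosses), with dotted lines at 2-fold. For Zic2 the circle lies at 3.12 for day 5 minus day 0 and the bars between 2.82 and 3.12, while the cross lies at 0.86.

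The 2 gene pairs differ in layout. In the RefSeq annotation of the assembly GRCm38.p6, Zic1 (chr9:91358058-91365768, minus strand) and Zic4 (chr9:91365631-91389351, plus strand) overlap at their ends. Zic5 (chr14:122459160-122465658, minus strand) and Zic2 (chr14:122475384-122480328, plus strand) are separated by 9725 bases. The nearest named genes measured on the array were compared with them. Clybl, the gene of a mitochondrial lyase 56926 bases from Zic5, differed by 0.59 (log2) for day 5 minus day 0, -0.63 for day 7 minus day 0 and -1.23 for day 7 minus day 5, close to the 0.59, -0.71 and -1.30 of Zic5. Pcca, a subunit of propionyl-CoA carboxylase that starts 4037 bases beyond Zic2, differed by only -0.03, -0.29 and -0.25 in these comparisons. On the other side of Clybl, Tm9sf2 differed by 0.30, 0.46 and 0.17. Ggact, beyond Pcca, differed by 0.28, 0.32 and 0.04. Of these 4 neighbours only Clybl was called in any comparison, lower on day 7 than on day 5. Around Zic1 and Zic4 the nearest named genes on the array lay 860843 bases away (Plscr1, a scramblase) and 1087286 bases away on the other side (Tbc1d2b). Tbc1d2b was higher on day 7 than on day 0 by 1.10 on the log2 scale and Plscr1 by 1.25, while the Zic1 and Zic4 values of this comparison were below 0. The next genes outwards, Adamts7 (0.87) and Plscr2 (0.02), did not pass 2-fold in it.

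The promoter sequences of Zic1, Zic4 and Zic5 were searched for forkhead motifs because Foxa2, a forkhead factor of endoderm, was 364-fold higher on day 5 than on day 0. The windows run from 250 bases before to 50 after a start given by RefSeq. For Zic4 this start lies inside the annotated gene, with the window at chr9:91368722-91369021. The outermost Zic4 start, at base 91365631 where the gene overlaps Zic1, was not searched. The forkhead motifs TGTTTAC and TATTTAC were searched on both strands, together with CCTGCTG, a core of the Zic binding motif. Over 32851 promoters of the same length, 3.65%, 3.04% and 10.5% held these motifs on either strand. Zic2 was not searched. The only match in the 3 Zic windows was TATTTAC on the reverse strand of Zic4, from -71 to -65 relative to its start, in the following stretch of 60 bases with the match in capitals.
Zic4, chr9:91368876-91368935, GRCm38.p6, plus strand: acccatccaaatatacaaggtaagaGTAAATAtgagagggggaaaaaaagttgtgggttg
The match describes letters only and says nothing of binding. Zic4 was not called higher on any later day by either probe. The 3 windows differed in CpG content, with 31 CpG in Zic1, 8 in the inner Zic4 window and 15 in Zic5, beside a median of 7 over all promoters.

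The Gli and Glis genes are the closest relatives of the Zic family. Of 5 genes compared, 1 was higher and 2 were lower on day 5 than on day 0, where all genes had 16.4% higher and 16.1% lower, and day 7 had the same counts against day 0 (16.2% and 19.1% of all genes). Between day 7 and day 5, 0 of 5 passed the limit in either direction. Gli2, an activator of Hedgehog target genes, stood at a normalised log2 signal of -0.23 on day 0, -2.51 on day 5 and -3.13 on day 7, and was thus 4.85-fold lower on day 5 and 7.47-fold lower on day 7 than on day 0. Gli1, itself a Hedgehog target, stood at -3.66, -5.09 and -5.71 on the 3 days and was 2.68-fold lower on day 5 and 4.13-fold lower on day 7 than on day 0. Glis1, a related factor, stood at -2.81, -0.98 and -0.75 and was 3.55-fold higher on day 5 and 4.17-fold higher on day 7. Gli3 (-0.69, -0.65 and 0.03 on days 0, 5 and 7) and Glis2 (1.93, 2.19 and 2.92) stayed within 2-fold of day 0, and Glis3 was not well above background on any array. No Gli or Glis gene had the course of Zic2, high on day 5 alone.

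Of 10 genes for proteins reported to bind or modify Zic or Gli factors, 9 were compared. Of these, 3 were higher and 1 lower on day 5 than on day 0 (16.4% and 16.1% of all genes), with Tcf7l2, a Wnt effector, 8.97-fold higher and the Zic-binding inhibitor Mdfi 3.01-fold higher. Srf, a transcription factor, was 2.01-fold higher, and the nuclear import factor Kpna2 was 2.81-fold lower. On day 7 against day 5, Tcf7l2 was 2.48-fold and Tcf7l1 2.26-fold lower, with 0 of 9 higher (8.38% of all genes lower and 5.97% higher).

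Markers of cell types in which Zic2 is known were set beside its values. For 12 genes of the postimplantation epiblast the summed signal was 5099% of the 75th percentile on day 0, 14043% on day 5 and 4964% on day 7. That sum, which a few bright genes can set, was highest on day 5, while the list's median difference between day 5 and day 0 was below 0. Of these 12, 5 were higher and 5 lower on day 5 than on day 0 (median -0.47, beside -0.11 for all genes), and 0 were higher and 5 lower on day 7 than on day 5 (median -0.88). Fgf5, a growth factor of the epiblast, was 132-fold and Otx2, a head organiser factor, 4.30-fold higher on day 5 than on day 0. Against them, the transcription factors Tcf15 (16.8-fold), Utf1 (6.99-fold) and Etv5 (6.42-fold) were lower on day 5 than on day 0. Pou3f1, a neural and epiblast factor, differed by only 1.09-fold between day 5 and day 0 and was 5.36-fold lower on day 7 than on day 5.

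For 17 neural plate and neural progenitor genes on the array the summed signal was 362%, 1395% and 822% on days 0, 5 and 7. This sum too was set mostly by bright genes. Ncam1 and Nes were the brightest on day 5, at normalised log2 signals of 3.35 and 1.47. Of 16 compared, 5 were higher and 2 lower on day 5 than on day 0 (median -0.05), and 1 was higher and 4 lower on day 7 than on day 5 (median -0.28). For both marker lists the shares of all genes were 16.4% higher and 16.1% lower in the first comparison and 5.97% and 8.38% in the second. The progenitor genes Fabp7 (15.8-fold) and Ncam1 (4.81-fold) were higher on day 5, whereas the neural plate factors Sox1 and Pax6 differed by -0.36 and -0.18 (log2). The 4 genes not well above background on day 5 were Six3, Hes3, Olig2 and Neurog2. The part of epiblast-like or neural cells in the Zic2 values was not tested, and in a culture measured as a whole more cells of a type and more RNA per cell cannot be told apart.

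**Figure D3:**
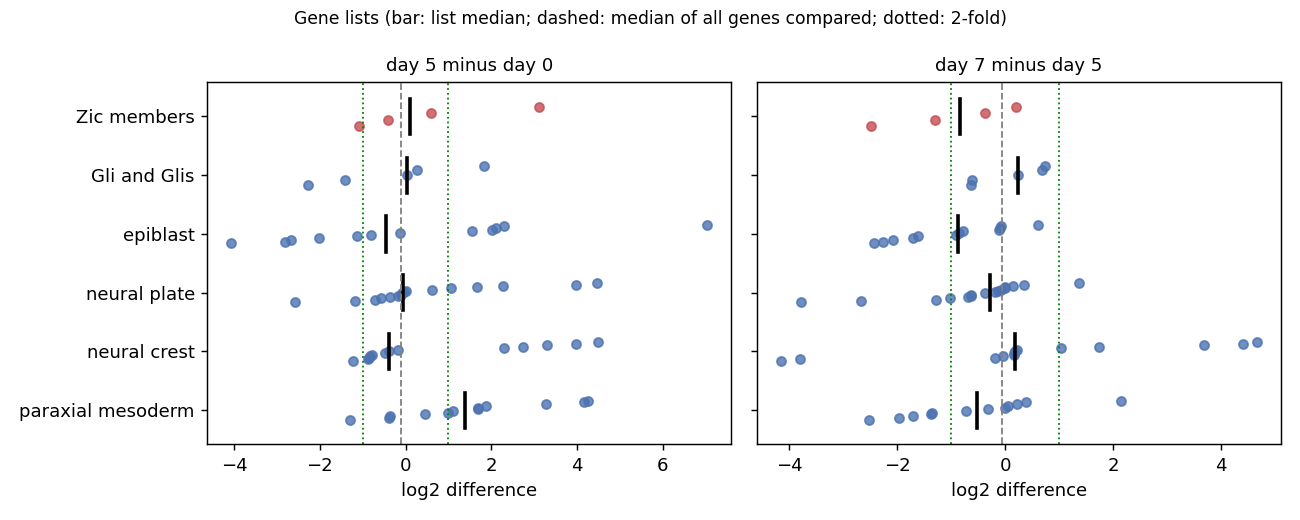
Log2 differences (horizontal axis) of the 4 Zic genes and of the genes of 5 lists for day 5 minus day 0 and day 7 minus day 5, with a bar at each list's median, a dashed line at the median of all genes compared and dotted lines at 2-fold. Zic2 lies at 3.12 and -2.48, while the Zic medians are 0.09 and -0.83.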

How the data were processed

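The 3 arrays were Agilent one-colour arrays. Per the file headers, the authors used Agilent Feature Extraction 10.5.1.1 for extraction, including background subtraction and spatial detrending, and probe positions are those of mm9. The deposited scanner files give an intensity for each spot on a linear scale with its error. They also give a p-value, per the file headers, that the spot equals its background, which was not used for a call. The other deposited marks (well above background, non-uniform, population outlier) are codes of 0 or 1. The deposited value table holds log2 values with a median of 7.17 in each column, correlating across probes at r = 0.9987 or above with the log2 processed signals. Its sorted columns differed by at most 0.000536, so they share 1 distribution, and no source used here names the step that equalised them.

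The log2 processed signal minus the array's 75th percentile over 43379 gene spots was used. Outlier spots were left out (149, 104 and 131 on days 0, 5 and 7, none a Zic spot), and spots of 1 probe were averaged. Probes were named through RefSeq accessions (24844), symbols (6045) or the file (10285), using the table of GRCm38.p6. A gene was represented by the probe well above background on most arrays, then the brightest. A dim signal was set to the higher of itself and the lowest signal well above background, which gives the "at least" values, and a gene dim in both days counted as 0. No test was possible with 1 array per day. The calling step was run on simulated differences of known size. The alternatives used limma 3.58.1 in R 4.3.3, with numpy 2.4.6 and pandas 2.3.3 in Python 3.11.15. The genes, lists and named genes were chosen with earlier results of these data known. Named were all Zic and Gli genes, the largest called differences of each list (up to 3 each way), the 4 genes most like each Zic gene, and the nearest 2 named neighbours on each side. A few further genes were named after their values were seen, as contrasts (Sox1, Pax6 and Shh). Alternatives changed the background correction, scaling, source of values, dim filter, probe summary, outlier spots and fold limit. The number of arrays limits the precision.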

Additional observations from a re-analysis of the deposited data

How the results depend on the processing

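Zic2 kept its direction and its calls under 8 alternatives, at 2.82 to 3.12 (log2) for day 5 minus day 0 and -2.48 to -2.32 for day 7 minus day 5. Some of these could not move Zic2, which has 1 probe, well above background on all arrays and with no outlier spot. They are the all-array filter, the setting without a dim filter, the median over probes and the kept outlier spots. The planned normexp correction was the exception: it gave 0.86 and -1.69 for Zic2, and Zic2 turned to -0.83 for day 7 minus day 0. It turned Zic5 to -2.50 for day 5 minus day 0 and to 0.96 for day 7 minus day 5, and Zic4 to 1.63 for the second of these. It called 3 Zic genes lower on day 5 than on day 0 (Zic1, Zic4 and Zic5). Its background mean, fitted on all spots, came out at -1242, -12.7 and -344 for days 0, 5 and 7, where the 153 negative control spots averaged 15.5, 11.7 and 12.8 intensity units. A refit on those control spots was therefore added after seeing the data. For day 5 minus day 0 the planned correction moved Zic4 from -0.41 to -3.20 and Zic5 from 0.59 to -2.50, further from 0. It moved Zic2 from 3.12 to 0.86. Both corrections add 50 intensity units to each signal, which by itself draws differences between dim signals towards 0. The refit was not run without this addition. With the planned correction 3 Zic genes passed 2-fold for day 7 against day 0, and over the array 1748 genes were higher and 9566 lower in the day 5 to day 0 comparison, 1583 and 8547 in day 7 to day 0, and 6275 and 441 in day 7 to day 5. With the refit, 1 Zic gene (Zic2) passed in each comparison that involves day 5, and 1073 genes were lower for day 7 against day 5. Requiring all arrays well above background left 1 Zic gene called for day 5 against day 0, since Zic1 drops out. The median over probes called 1, Zic4 at -2.08, for day 7 against day 0. Between day 5 and day 0 it called Zic4 (-1.94) in place of Zic1 (-0.88). In this setting a gene counted as well above background if either probe was. The dim day 5 and day 7 signals of A_52_P502228 thus entered the Zic4 median without a bound, while Zic1 on day 5 was bounded. The 3-fold limit left 1, 0 and 1 Zic genes in the 3 comparisons, and 2135 higher and 1793 lower, 2165 and 2162, and 709 and 864 genes over the array, fewer by construction. No paired analysis was possible because each group has 1 array. Zic1 and Zic4 lie near background, which limits what their probes can show.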

Other observations

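Genes of other tissues in which Zic factors are known were counted in the same way, and their part in the Zic values was not tested. Of 13 neural crest and dorsal neural tube genes compared, 7 were higher and 2 lower on day 7 than on day 0 (16.2% and 19.1% of all genes), with a median of 2.48 (log2) beside -0.19 for all genes. Sox9, a factor of crest and cartilage, was 52.6-fold higher on day 7 than on day 0, and Msx2, a target of BMP signalling, 22.5-fold higher. Pax7 was 9.87-fold higher on day 5 than on day 0 and 13.9-fold lower on day 7 than on day 5, the course that Zic2 also had. Foxd3, a factor of ES cells and crest, was 42.0-fold lower on day 7 than on day 0.

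Of 12 paraxial mesoderm and somite genes compared, 7 were higher and 1 lower on day 5 than on day 0 (median 1.40), and 1 was higher and 5 lower on day 7 than on day 5 (median -0.51). Over all genes the shares were 16.4% and 16.1% in the first of these comparisons and 5.97% and 8.38% in the second, also for the midline list that follows. The Notch ligands Dll1 (19.2-fold) and Dll3 (17.8-fold) were higher on day 5 than on day 0, and Dll3 was 5.76-fold lower on day 7 than on day 5. Of 17 midline and node genes, 13 were higher and 0 lower on day 5 than on day 0 (median 1.97), and 2 were higher and 7 lower on day 7 than on day 5 (median -0.51). Lefty1 (110.0-fold) and Lefty2 (34.9-fold), inhibitors of Nodal, and Gsc (32.8-fold) were lower on day 7 than on day 5. This list shares Gsc and Foxa2 with the definitive endoderm markers. In the other direction, the hedgehog ligand Ihh was 15.0-fold higher on day 7, while Shh was above the background mark on day 5 only.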
